A study of Schizosaccharomyces pombe with 4 samples.

Results

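The genes described here encode the proteins of the large, 60S subunit of the cytosolic ribosome in fission yeast (Schizosaccharomyces pombe). They were chosen by name from the RefSeq annotation of assembly ASM294v3, as the genes called rpl or rpp followed by digits, paralogues included. The annotation held 83 of them, of which 81 were among the 4888 genes with values, and rpl1201 and rpl1202 were not analysed here. The genes rpp1, rpp21 and rpp40, which encode subunits of RNase P or RNase MRP, were left out, as were all proteins of the mitochondrial ribosome. The product of rpl701 is annotated as an L7-like protein and also as a subunit of RNase MRP, and the gene was kept.

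The study located the RNA helicase Upf1 on chromosomes by chromatin immunoprecipitation (IP) and tiling arrays. Upf1 carried an HA tag at its own locus and was recovered with an antibody to that tag. The series holds 4 arrays. The study's strain list holds upf1-3HA::kanMX6 in a cdc25-22 background with marker mutations in ura4, leu1 and ade6, and does not tie it to a culture. In the S-phase culture cdc25-22 cells were stopped in G2 at 37 °C for 3.5 h, released at 25 °C and fixed 60 min later (1 IP array). The asynchronous culture was not synchronised (1 IP array), and its genotype is not given separately in the sources used here. The remaining 2 arrays held input DNA, labelled as untreated, and both cultures were divided by the mean of these inputs. The S-phase and asynchronous ratios thus share their denominator, and neither input is labelled as S phase. The titles of the IP arrays end in what read as dates in different years. With 1 IP array per culture nothing was replicated, so differences are described and not tested.

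Upf1 is best known as a helicase of nonsense-mediated decay, the pathway that removes mRNAs with early stop codons during translation. Ribosomal protein genes are among the most heavily transcribed genes of a growing yeast, and most of their products are needed in equal numbers per ribosome although many are encoded by paralogous genes. In the large subunit, the L1 stalk and the P stalk are mobile arms next to the tRNA and factor sites, and the new protein leaves through an exit tunnel lined and ringed by further proteins.

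Many of these genes share promoter elements, and a few of the promoters are shown here. Most belong to the paralogues that differed most, or least, in Upf1. The promoter of rpl3001 is shown because this gene lay farthest below the S-phase curve of Upf1 on Pol II described further on. Each line gives the bases 110 to 31 upstream of the annotated start of transcription, 5′ to 3′ on the strand of the gene, from RefSeq ASM294v3. The build behind the array values is not stated, so no chromosome positions are given. Capitals mark the HomolD box (CAGTCACA, or TGTGACTG where it lies on the other strand) and the core of the HomolE box (ACCCTACC, or GGTAGGGT on the other strand), which are known as promoter elements of fission yeast ribosomal protein genes. Both motifs were searched on both strands, and they do not overlap each other. The lines rpl101 (chromosome III) and rpl102 (chromosome II) belong to the pair for the L1-stalk protein, rpl35A01 (chromosome III) and rpl35A02 (chromosome II) to that for eL33, and rpl4101 and rpl4102 (both chromosome I) to that for the very small protein L41. The lines rpp201 and rpp202 (both chromosome II) and rpp203 (chromosome I) belong to the P2 proteins of the stalk, and rpl3001 and rpl301 (both chromosome I) to eL30 and to L3.
rpl101: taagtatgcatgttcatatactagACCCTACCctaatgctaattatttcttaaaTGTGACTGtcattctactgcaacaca
rpl102: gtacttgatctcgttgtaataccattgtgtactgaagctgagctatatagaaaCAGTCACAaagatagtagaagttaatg
rpl35A01: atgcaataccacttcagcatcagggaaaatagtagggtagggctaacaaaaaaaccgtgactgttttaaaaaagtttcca
rpl35A02: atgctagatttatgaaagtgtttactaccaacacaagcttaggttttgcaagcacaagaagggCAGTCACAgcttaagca
rpl4101: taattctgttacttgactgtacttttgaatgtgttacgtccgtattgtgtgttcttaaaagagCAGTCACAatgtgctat
rpl4102: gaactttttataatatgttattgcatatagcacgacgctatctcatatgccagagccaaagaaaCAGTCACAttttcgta
rpp201: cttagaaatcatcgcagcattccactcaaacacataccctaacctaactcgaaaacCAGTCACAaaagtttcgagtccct
rpp202: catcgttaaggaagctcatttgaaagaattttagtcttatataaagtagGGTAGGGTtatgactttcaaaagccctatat
rpp203: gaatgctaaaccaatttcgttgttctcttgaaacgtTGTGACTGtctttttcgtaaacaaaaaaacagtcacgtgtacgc
rpl3001: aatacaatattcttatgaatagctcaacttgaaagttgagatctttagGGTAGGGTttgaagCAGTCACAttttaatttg
rpl301: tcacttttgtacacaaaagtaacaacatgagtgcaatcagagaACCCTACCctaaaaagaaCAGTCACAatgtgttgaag

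A HomolD box lay between 250 bases before and 50 bases after the start at 54 of the 83 annotated 60S genes (65.1%), at 34 of 55 genes of the small, 40S subunit (61.8%) and at 137 of all 5112 protein-coding genes (2.68%). The HomolE core was found at 20 of the 60S promoters (24.1%), at 38.2% of the 40S promoters and at 1.62% of all promoters. The HomolD boxes kept a narrow place. Their median distance was 51 bases upstream of the start, with quartiles of 46 and 57, and 41 of 57 matches ran in the direction of the gene. The HomolE cores lay at a median of 70 bases upstream. In all 13 of the 60S promoters with both motifs, the HomolE core was the farther from the start, by a median of 20 bases. The promoters of rpl35A01 and rpp202 had no HomolD box in this window. A form that ends in G in place of the last A (CAGTCACG), visible in the line of rpl35A01 on the other strand and looked for after the sequences were seen, occurred in 17 of the 29 promoters without a HomolD box and in 1.23% of all promoters.

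**Figure D1:**
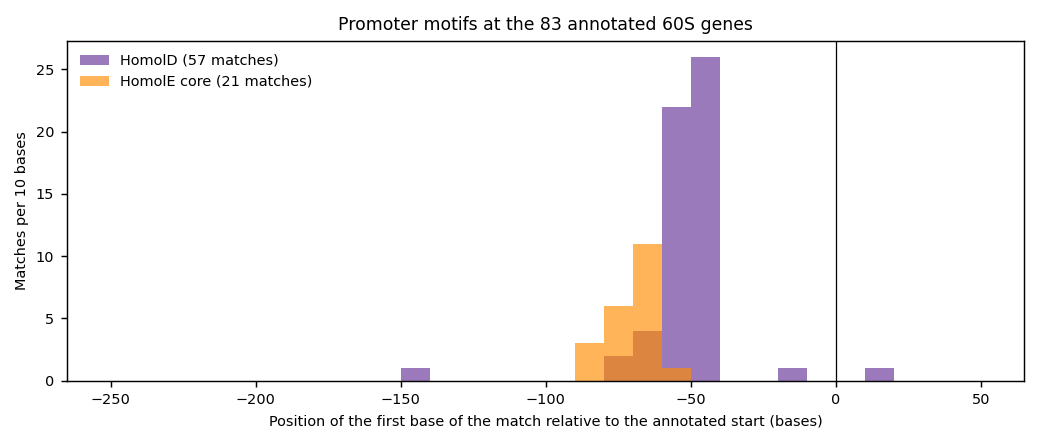
Histogram of motif matches at the 83 annotated 60S genes, with the position of the first base of each match relative to the annotated start on the x axis (bases) and matches per 10 bases on the y axis. The 57 HomolD matches (purple) sit around 51 bases upstream and the 21 HomolE core matches (orange) around 70 bases upstream.

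Genes with and without an exact HomolD box had similar Upf1 medians. The 52 listed 60S genes with a HomolD box had a median log2 ratio of 0.68 in S phase, against 0.71 for the 29 without. The medians in the asynchronous culture were 0.53 with the box and 0.55 without. Of the 29 without it, 17 held the form ending in G, so the contrast cannot tell whether the element goes with Upf1. The box or that form was found at 71 of the 83 annotated 60S promoters (85.5%), against 3.83% of all promoters. All ratios from here on are log2 IP over input, relative to the median gene of the same column, which stands at 0. Among the printed lines rpl101 and rpl102 each carry a HomolD box at nearly the same distance, 56 and 57 bases upstream, and yet lay far apart in Upf1. The line of rpl101 also holds a HomolE core, 86 bases upstream, and that of rpl102 holds none. The part of either motif in Upf1 was not tested.

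As a group the 60S genes carried more Upf1 than the median gene in both cultures. Their median ratio was 0.68 in S phase, which is 1.60-fold over the median gene, and 0.53 in the asynchronous culture, which is 1.45-fold. In S phase 79 of the 81 genes lay above the median gene, and in the asynchronous culture 78 did. A gene was counted as enriched from 1.5-fold over the median gene upward, a log2 ratio of 0.58. By that count 53 of 81 were enriched in S phase, against 11.2% of all 4888 genes. The asynchronous count was 32 of 81, against 5.14% of all genes. At 2-fold the counts were 11 in S phase, against 2.97% of all genes, and 0 in the asynchronous culture, against 0.491%. With the ratios as deposited, before centring, the S-phase values of the 60S genes ran from 0.159 to 0.534 and the asynchronous values from 0.737 to 1.47. The columns had not been scaled to each other, so a fold can be read only within a column.

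The enrichment moved with base composition. The 60S genes had a median GC content of 42.4%, against 36.8% over all genes, and across all genes Spearman's rho between GC content and Upf1 was 0.50 in S phase and 0.54 in the asynchronous culture. Within the 60S genes that rho was 0.23 in S phase and 0.40 in the asynchronous culture. After the smooth trend on GC content was removed, the median of the 60S genes was 0.14 in S phase and 0.17 in the asynchronous culture. The enriched counts were then 13 of 81 in S phase, against 8.18% of all genes with a GC value, and 4 of 81 in the asynchronous culture, against 3.24%. The part of GC content in the ratios was not tested, and values below are without that correction unless it is named.

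**Figure D2:**
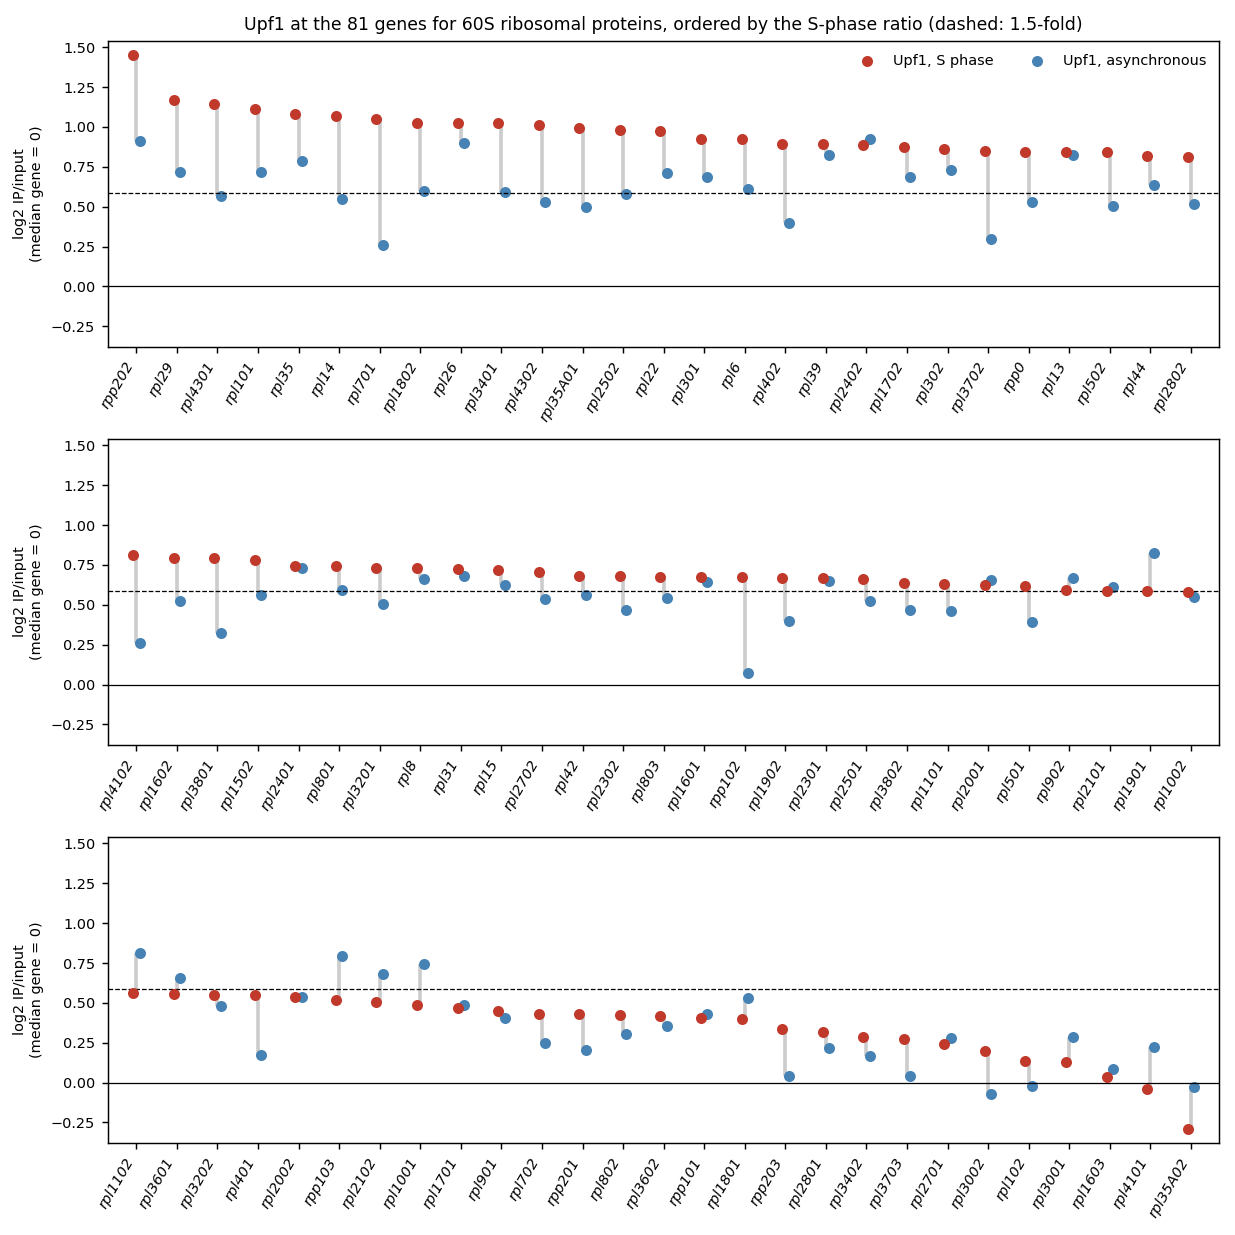
Upf1 at each of the 81 genes, ordered by the S-phase ratio; the y axis is log2 IP over input with the median gene at 0, red points are S phase, blue points the asynchronous culture, and the dashed line marks 1.5-fold. The S-phase points run from 1.45 at rpp202 to -0.29 at rpl35A02, and the asynchronous points from 0.93 at rpl2402 to -0.07 at rpl3002.

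The members differed among themselves. The standard deviation was 0.30 in S phase and 0.23 in the asynchronous culture, against 0.48 and 0.34 over all genes in the same order of cultures. The S-phase quartiles were 0.51 and 0.86. The asynchronous quartiles were 0.35 and 0.66. The cut at 1.5-fold ran through the middle of this range. In S phase rpl1901 and rpl2101 stood just inside it at 0.58 and 0.59, and rpl1002 and rpl1102 just outside at 0.58 and 0.56. Among the asynchronous values rpl3401 and rpl801 stood just inside at 0.59 each, and rpl2502 and rpl4301 just outside at 0.58 and 0.57.

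The P stalk, which recruits and activates the translation factors, held the gene with the highest S-phase ratio and others in the lower part of the range, where rpp201 ranked 66 and rpp203 ranked 71 of 81. The P2 gene rpp202 had a deposited ratio of 0.534 in S phase and 1.46 in the asynchronous culture, or 1.45 and 0.91 after centring. Its paralogue rpp201 stood at 0.43 in S phase and 0.20 in the asynchronous culture. The third P2 gene, rpp203, stood at 0.34 in S phase and 0.04 in the asynchronous culture. The P2 genes were thus led by rpp202 in both cultures, whereas rpp203 led in Pol II, with ratios of 1.49 for rpp202, 1.40 for rpp201 and 1.78 for rpp203. The RNA levels of the P2 genes, as ln(FPKM + 1), were 8.27 for rpp202, 8.44 for rpp201 and 7.80 for rpp203. The annotated rpp202 is 478 bp long and overlaps another protein-coding gene, SPBC23G7.14, whose part in the signal was not tested.

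The P1 genes, whose proteins pair with P2 on the stalk, changed their order between cultures. In S phase rpp102 was at 0.67, rpp103 at 0.52 and rpp101 at 0.41. Without synchronisation rpp103 was at 0.79, rpp101 at 0.43 and rpp102 at 0.07. The gene rpp102 had one of the highest RNA levels of all members, 9.00, and was called higher in S phase (0.59 in the ratio of S phase over asynchronous). The gene rpp0, for the protein at the base of the stalk, stood at 0.85 in S phase and 0.53 in the asynchronous culture. Over the 7 P-stalk genes the median was 0.52 in S phase, against 0.68 for the other 74 members, and 0.43 in the asynchronous culture, against 0.54.

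The L1 stalk, which moves the spent tRNA out of the ribosome, is encoded by a pair that lay on opposite sides of the group. The gene rpl101 stood at 1.12 in S phase and 0.72 in the asynchronous culture, and rpl102 at 0.14 in S phase and -0.02 in the asynchronous culture. Both had much Pol II, 1.58 at rpl101 and 1.49 at rpl102. Their RNA levels differed, at 6.71 for rpl101 and 5.47 for rpl102. The genes share 79.7% of aligned coding bases and no 25-base word.

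The 4 genes of the 5S particle, made of L5, L11 and the 5S rRNA, were closer together. They ran in S phase from 0.56 at rpl1102 to 0.84 at rpl502. Among the asynchronous values rpl1102 had the highest of these genes, 0.81, and rpl501 the lowest, 0.39. The gene rpl1102 was among the 5 members with the lowest ratio of S phase over asynchronous, at -0.26.

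Genes for the wall of the exit tunnel (L4, L17 and L39) had an S-phase median of 0.88 and an asynchronous median of 0.49. The small protein L39 is encoded by 1 gene, rpl39, which stood at 0.90 in S phase and 0.83 in the asynchronous culture. The gene rpl1701 had the highest Pol II ratio of all members, 2.29, but an Upf1 ratio of only 0.47 in S phase and 0.49 in the asynchronous culture. The 7 genes for proteins around the mouth of the tunnel (L19, L25, L26, L31 and L35) were all enriched in S phase. Of all members 53 of 81 were, and of all genes 11.2%. In the asynchronous culture 4 of the 7 were enriched, against 32 of 81 members and 5.14% of all genes. The S-phase ratio of rpl1901 was just inside the limit, at 0.58. Among the tunnel-mouth genes rpl35 had 1.08 in S phase and 0.79 in the asynchronous culture. The gene rpl26 had 1.03 in S phase and 0.90 in the asynchronous culture, beside an RNA level of 8.94 and a Pol II ratio of 2.07. The role groups were drawn up after the values had been seen and carry no test.

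Of the remaining genes, rpl29 and rpl4301 had the next highest S-phase ratios after rpp202. The gene rpl29 stood at 1.17 in S phase and 0.72 in the asynchronous culture. The gene rpl4301, for a protein with a zinc finger, stood at 1.14 in S phase and 0.57 in the asynchronous culture. Among the asynchronous ratios rpl2402, for a protein that joins the subunit late in the cytoplasm, ranked first with 0.93, beside 0.89 in S phase, and rpl13 reached 0.83, beside 0.84 in S phase. None of these 4 genes was called higher in S phase.

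The lowest S-phase ratio belonged to rpl35A02, for eL33, with -0.29 in S phase and -0.03 in the asynchronous culture (deposited ratios 0.159 and 0.759). It was followed in S phase by rpl4101 at -0.04, rpl1603 at 0.03 and rpl3001 at 0.13. The lowest asynchronous ratio was that of rpl3002, at -0.07, with 0.20 in S phase. For rpl3703 the asynchronous ratio was 0.04, with 0.27 in S phase. The genes at the low end were thus single members of families whose other genes stood higher, except for eL30, where both rpl3001 and rpl3002 were low. In budding yeast the eL30 protein binds its own transcript and blocks its splicing. The gene rpl1603 differed from the rest in other columns as well, with the lowest RNA level (3.70) and a Pol II ratio of 0.61, and it was the only member whose RNA level was below the median gene.

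The ratio of S phase over asynchronous varied less among the 60S genes than among all genes. Its median over the members was 0.15, or 1.11-fold, with a standard deviation of 0.23, against 0.35 over all genes. It was above 0 in 62 members and below 0 in 19. At 1.5-fold 2 of 81 were higher in S phase, against 3.78% of all genes. None of the 81 was lower, against 4.03% of all genes. The counts of members were thus near or below the share of all genes. The S-phase cells had also been through the arrest at 37 °C, and the titles of the IP arrays carry what read as different dates. The effects of arrest and date cannot be told apart from that of the cell cycle. The 2 higher genes were rpl701, at 0.78, and rpp102, at 0.59. The gene rpl701 stood at 1.05 in S phase and 0.26 in the asynchronous culture, and it also had one of the highest Pol II ratios, 2.12. Next came rpl4301 at 0.57, then rpl4102 and rpl3702 at 0.54 each. At the other end stood rpp103 at -0.28, rpl4101 and rpl35A02 at -0.27 each and rpl1001 at -0.26. The S-phase column was wider over all genes, and once it was scaled to the spread of the asynchronous column the median of the members was -0.03 and no member was called in either direction, against 1.82% of all genes higher and 2.13% lower.

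In the median, short genes stood higher in S phase. The 12 members under 500 bp, about the length of the DNA fragments, had a median of 0.95 in S phase and 0.58 in the asynchronous culture. The 69 longer members had 0.67 in S phase and 0.53 in the asynchronous culture. The median ratio of S phase over asynchronous was 0.43 in the short genes and 0.13 in the longer ones. Short genes offer fewer probes to the array, and the part of gene length was not tested. The 60S genes are short in general, with a median of 680 bp, against 1803.5 bp over all genes.

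The 60S genes were compared with transcription next. Pol II here is the form phosphorylated on Ser5, a form that in fission yeast occurs along the whole body of transcribed genes. The authors took both this column and the RNA level from other datasets. All 81 members lay above the median gene in Pol II, with a median of 1.49, or 2.82-fold. At 1.5-fold 80 of 81 were enriched for Pol II, against 16.0% of all genes, and the exception was rpl3402 at 0.56. The median RNA level was 6.99, against 3.74 over all genes, which is 1081 FPKM at the members and 41.0 FPKM at the median gene. These columns show the heavy transcription that ribosomal protein genes are known for. Relative to the median gene, the group stood higher in Pol II than in Upf1, in columns that come from different arrays.

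Within the 60S genes Upf1 followed Pol II weakly. Across the 81 genes Spearman's rho of Upf1 with Pol II came to 0.19 in S phase and 0.20 in the asynchronous culture. Over all 4888 genes it was 0.58 in S phase and 0.56 in the asynchronous culture. Between Upf1 and RNA level rho was 0.29 in S phase and 0.18 in the asynchronous culture within the 60S genes, against 0.42 and 0.38 over all genes in the same order of cultures. Pol II ran from 0.56 to 2.29 within the group, and the part of this range in rho was not tested. By Pol II 78 of the 81 genes were in the top 10% of genes. Those 78 had a median of 0.68 in S phase, and so did the 411 other genes of that class. In the asynchronous column the median was 0.54 for the 78, against 0.41 for the 411. Even Pol II and RNA level were only weakly related within the group, with a rho of 0.22, against 0.59 over all genes. Genes are not independent replicates, and the Upf1 columns share their inputs. With the GC trend removed from Upf1 and Pol II alike, rho within the group was 0.60 in S phase and 0.56 in the asynchronous culture. With the GC trend removed from Upf1, rho with RNA level was 0.08 in S phase and 0.01 in the asynchronous culture. The GC trends were fitted over all genes, so what was subtracted from Upf1 and from Pol II depends on the same GC content. Such a shared term can by itself raise rho, and its part was not tested. The RNA level was not corrected, so the values for Pol II and RNA level are not alike.

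A smooth curve of Upf1 on Pol II over all genes served to ask whether the 60S genes had the Upf1 that other genes with their Pol II have. In the median the 60S genes lay close to this curve, which they helped to fit. Their median distance from the curve was -0.07 in S phase and 0.03 in the asynchronous culture. In S phase 1 of 81 lay at least 1.5-fold above the curve, against 4.66% of all genes, and 7 lay at least 1.5-fold below, against 5.63% of all genes. For the asynchronous culture 0 lay above, against 2.74% of all genes, and 1 lay below, against 1.88%. Along the curve on RNA level the medians were -0.02 in S phase and 0.03 in the asynchronous culture. By that curve 0 members lay above in S phase, against 7.00% of all genes, and 4 lay below, against 6.85%. Of the asynchronous values 0 lay above that curve, against 3.38% of all genes, and 3 lay below, against 2.82%. The smooth curve on Pol II was fitted on all genes, the members among them. Fitted without any ribosomal protein gene, it put the median of the members at -0.27 in S phase and 0.015 in the asynchronous culture.

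**Figure D3:**
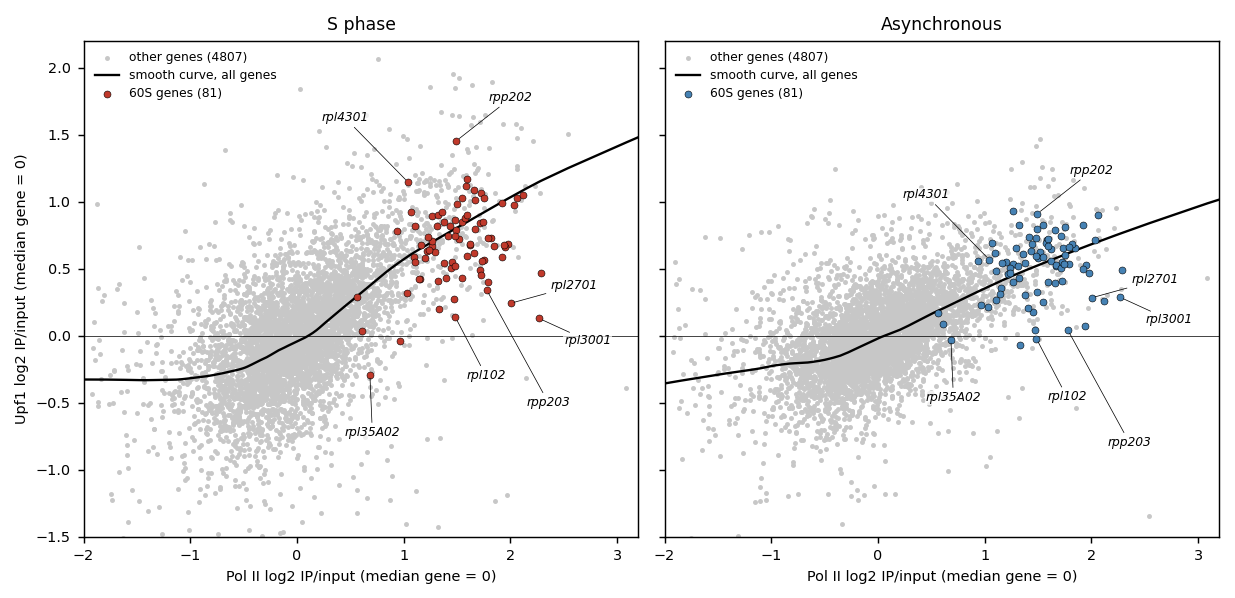
Upf1 (y axis) against Ser5 Pol II (x axis), both as log2 IP over input with the median gene at 0, in S phase (left) and the asynchronous culture (right); grey points are other genes, coloured points the 81 60S genes, and the line is the smooth curve over all genes. The coloured points lie around the line at Pol II ratios from 0.56 to 2.29, with a median of 1.49. Outside the axes lie 35 other genes in S phase and 22 in the asynchronous culture.

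The gene above the curve in S phase was rpp202, at 0.65, followed by rpl4301 at 0.55. Those below it were led by rpl3001, which had a Pol II ratio of 2.27 and lay -1.02 from the curve. The gene rpl2701, for eL27, had a Pol II ratio of 2.00 and lay -0.79 from the curve, and rpl1701 lay -0.69 from it. The other genes below were rpl35A02 and rpl102 at -0.66 each and rpl4101 and rpp203 at -0.59 each. In the asynchronous culture the gene called below was rpp102, at -0.59, with rpp203 at -0.57 and rpl102 at -0.54 close behind. The highest distance in the asynchronous culture was 0.48, at rpl2402. Several single genes of the group thus had less Upf1 than the curve gives at their Pol II, above all rpl3001. Among them rpl35A02 and rpl4101 had low Pol II for the group, at 0.68 and 0.96. In the annotation rpl3001, rpl1701, rpl35A02, rpl4101 and rpp203 overlap another protein-coding gene, while rpl2701 and rpl102 do not. Of all 81 members 19 have such an overlap. The part of the overlaps in these distances was not tested.

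Part of the spread lay between paralogues. The 81 genes fall into 45 families, 13 with 1 listed gene, 28 with 2 and 4 with 3, which gives 40 pairs. Among the 68 genes with a listed paralogue, within-family differences held 70.1% of the sum of squares in S phase and 53.4% in the asynchronous culture. For comparison they held 56.8% for Pol II and 36.8% for RNA level. The share that families drawn at random would hold was not computed, so these shares alone do not set paralogues apart. Genes of a pair were little closer in Upf1 than genes of different families. The median size of the difference was 0.20 in S phase over the 40 pairs, against 0.27 over the 3200 pairs of different families. The asynchronous size was 0.23 over paralogues, against 0.22 over different families. At 1.5-fold 10 of 40 pairs differed in S phase (25.0%), against 16.0% of pairs of different families, and 4 of 40 in the asynchronous culture, against 8.38%. Of the 33 pairs with both genes at least 500 bp long, 6 differed in S phase (18.2%) and 2 in the asynchronous culture (6.06%). The pairs of different families were not limited by length.

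**Figure D4:**
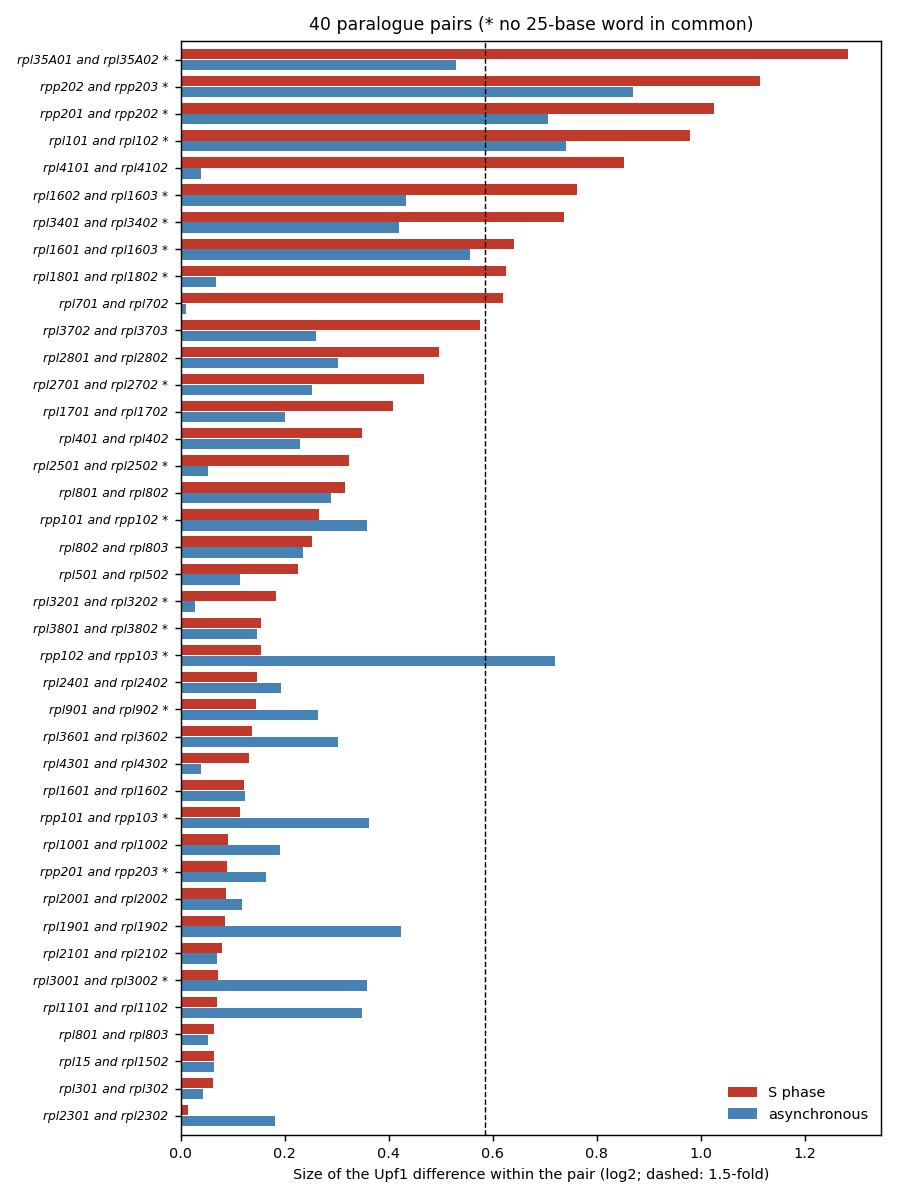
Size of the Upf1 difference within each of the 40 paralogue pairs (x axis, log2), ordered by the S-phase value; red bars are S phase, blue bars the asynchronous culture, the dashed line marks 1.5-fold and a star marks pairs with no 25-base word in common. The longest red bar is that of rpl35A01 and rpl35A02 at 1.28, and the longest blue bar that of rpp202 and rpp203 at 0.87.

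The pair with the largest S-phase difference was rpl35A01 over rpl35A02, at 1.28, with 0.53 in the asynchronous culture. The gene rpl35A01 also had more Pol II, by 1.23, and a higher RNA level, by 1.03. The P2 and L1-stalk pairs described above came next, with rpp202 over rpp203 at 1.11 in S phase and 0.87 in the asynchronous culture. For rpp201 minus rpp202 the values were -1.03 in S phase and -0.71 in the asynchronous culture. The pair rpl101 over rpl102 differed by 0.98 in S phase and by 0.74 in the asynchronous culture. These pairs differed in the same direction in both columns, which share their inputs. For L41, rpl4101 minus rpl4102 was -0.85 in S phase and -0.04 in the asynchronous culture, and both genes are shorter than 500 bp. In the asynchronous culture the third largest difference was rpp102 minus rpp103, at -0.72, where the S-phase value was 0.15. The pair rpl1601 and rpl1603, for uL13, differed by 0.64 in S phase and 0.56 in the asynchronous culture.

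Other pairs had almost the same Upf1. In S phase rpl2301 and rpl2302 differed by 0.01, rpl301 and rpl302 by 0.06, and rpl15 and rpl1502 by 0.06. The smallest sizes in the asynchronous culture belonged to rpl701 and rpl702 (0.01), rpl3201 and rpl3202 (0.03), and to the L41 pair and the pair of rpl4301 and rpl4302 (0.04 each). The closeness of L3, a protein near the catalytic centre, comes with shared sequence: 68.2% of the 25-base words of the shorter rpl3 gene occur in the other. A probe in such words cannot tell the genes apart. The 22 pairs that share a word had a median difference of 0.13 in S phase and 0.19 in the asynchronous culture. The 18 pairs that share none had 0.40 in S phase and 0.36 in the asynchronous culture. The part of cross-hybridisation was not tested.

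Over all pairs Pol II did little to tell which paralogue had more Upf1. The gene with more Pol II was the one with more Upf1 in 22 of 40 pairs in S phase and in 24 of 40 in the asynchronous culture. The gene with the higher RNA level was the one with more Upf1 in 25 of 40 pairs in S phase and also in 25 in the asynchronous culture. Among the 10 pairs that were 1.5-fold apart in S phase, 8 had more Upf1 at the gene with more Pol II. Among the 4 such pairs in the asynchronous culture, 2 did.

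Genes without a listed paralogue spread less than those with one. The 13 single-copy genes were rpl6, rpl8, rpl13, rpl14, rpl22, rpl26, rpl29, rpl31, rpl35, rpl39, rpl42, rpl44 and rpp0. All 13 were enriched in S phase, against 11.2% of all genes, with a median of 0.90 and a standard deviation of 0.15. In the asynchronous culture 10 were enriched, against 5.14% of all genes, with a median of 0.68 and a standard deviation of 0.12. Of the 68 genes with a listed paralogue, 40 were enriched in S phase, with a median of 0.63 and a standard deviation of 0.30. Of the same 68 genes, 22 were enriched in the asynchronous culture, with a median of 0.51 and a standard deviation of 0.23. The single-copy genes also had more Pol II, 1.66 against 1.48, and a higher RNA level, 7.54 against 6.89. Their median GC content was 41.4%, against 42.7% in genes with a paralogue. Their median distance from the curve on Pol II was 0.02 in S phase, against -0.09 for genes with a paralogue, and 0.13 in the asynchronous culture, against -0.01.

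Introns, which are short in fission yeast, went with more spread and not with a higher level. The 43 members with an intron had a median of 0.68 in S phase and a standard deviation of 0.37. The 38 without one had a median of 0.67 in S phase and a standard deviation of 0.20. Asynchronous enrichment was found at 12 of the 43 intron-containing genes, with a median of 0.52. Among the intronless genes 20 of 38 were enriched there, with a median of 0.59. Of all members 32 of 81 were enriched there, and of all genes 5.14%. The median GC content was 40.3% in the genes with an intron and 45.5% in the intronless genes.

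The genes of the other subunit were set beside them next. The S-phase median was 0.68 at the 60S genes, against 0.67 at the 55 genes for 40S proteins. The asynchronous median was 0.53 at the 60S genes, against 0.49 at the 40S genes. Of the 40S genes 35 were enriched in S phase, against 11.2% of all genes, and 17 in the asynchronous culture, against 5.14%. The median Pol II ratio was 1.49 at 60S genes, against 1.47 at 40S genes.

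Genes for elongation factors and glycolysis, with about as much Pol II, had higher Upf1 medians. The 9 listed elongation factor genes had a median of 1.06 in S phase and 0.76 in the asynchronous culture at a median Pol II ratio of 1.35. In S phase 8 of them were enriched, against 11.2% of all genes. The 13 genes of the glycolysis list, which also holds the fermentation gene adh1, had a median of 1.58 in S phase and 1.10 in the asynchronous culture at a Pol II ratio of 1.48. In the median both lists hold longer genes, with median lengths of 1519 bp for the elongation factors and 1641 bp for glycolysis. Their median GC content was also higher, at 45.9% for the elongation factors and 47.2% for glycolysis. A wider comparison took the 119 other genes whose Pol II ratio lay within the quartiles of the 60S genes. The S-phase median was 0.68 at the 60S genes, against 0.84 at these 119, and the asynchronous median was 0.53 at the 60S genes, against 0.52.

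The factors that assemble the subunits were enriched about as rarely as genes in general. Of 61 genes for ribosome assembly factors 52 were listed, with a median of 0.11 in S phase and 0.08 in the asynchronous culture. In S phase 6 of these 52 were enriched, which is 11.5%, against 11.2% of all genes. In the asynchronous culture 1 was, against 5.14% of all genes. Their median Pol II ratio was 0.44 and their median RNA level 4.95, far below the 60S genes they serve. Both the list of assembly factors and the other lists were compiled by symbol with earlier results of these data known.

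**Figure D5:**
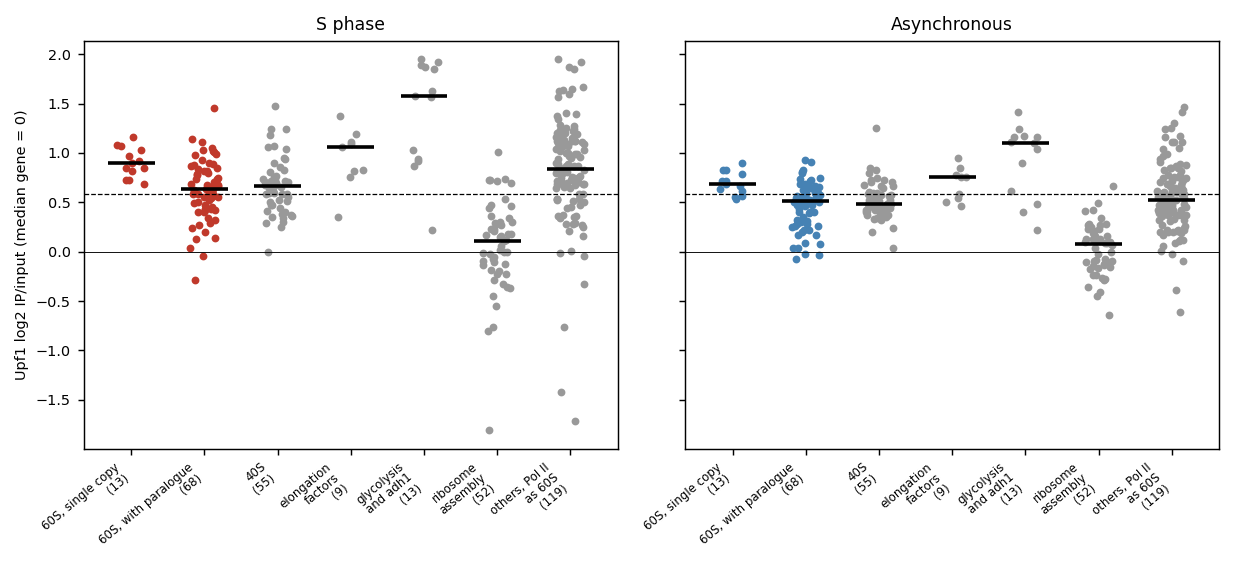
Upf1 by gene group in S phase (left) and the asynchronous culture (right), as log2 IP over input with the median gene at 0; each point is a gene, bars are medians, the dashed line marks 1.5-fold and numbers in brackets count genes. The 13 single-copy 60S genes all lie above the dashed line in S phase, while the 68 with a paralogue reach down to -0.29.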

How the data were processed

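Affymetrix tiling arrays gave 1 IP profile of Upf1-HA per culture and 2 input profiles. The authors summarised probe intensities to 1 signal per gene, scaled and averaged the inputs, and deposited the IP over input ratio of each gene. They used the better of the IP arrays of each culture. The Pol II ratio deposited by the authors was computed likewise, from arrays published elsewhere. The RNA level deposited by the authors is a natural log of the mean FPKM, plus 1, of RNA-seq libraries published elsewhere. The number of arrays limits the precision.

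Ratios were converted to log2 and centred on the median of 4888 genes. The RefSeq annotation matched 4844 identifiers and left 44 unmatched. The annotation and its genome supplied names, products, chromosomes, starts of transcription, coding intervals, lengths, GC content, introns and overlaps. Curves of Upf1 on Pol II and on RNA level were lowess fits with a span of 0.3 over all genes (statsmodels 0.14.6, Python 3.11.15). Paralogues were aligned over their coding sequence (Biopython 1.88), and words of 25 bases shared between genes were counted. Calls, centring, curves and the motif search were tested on simulated data. The spread between arrays was taken as the standard deviation over genes of the ratio of the cultures divided by the square root of 2 (0.24). No p-value is given, since each culture had 1 IP array.

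The genes named in the text were the 5 highest and 5 lowest in each culture and in the ratio of the cultures, the 3 highest and 3 lowest by distance from the curve on Pol II, by Pol II and by RNA level, the pairs at either extreme, the P-stalk genes and those next to the 1.5-fold limit; others serve as examples of a role. The members and lists were chosen with earlier results of these data known. Alternatives covered the centring, GC content, scaling of the columns, the fold limit, shared words, overlapping genes and the fit of the curves.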

Additional observations from a re-analysis of the deposited data

Results flagged for a closer look

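At 3 of the 81 genes the cultures fell on opposite sides of the median gene; over all 4888 genes 1140 did so. The gene rpl4101 was at -0.039 in S phase and 0.22 in the asynchronous culture. For rpl102 the values were 0.14 in S phase and -0.024 in the asynchronous culture. The gene rpl3002 was at 0.20 in S phase and -0.072 in the asynchronous culture. The difference was not tested, since each culture had 1 array.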

How the results depend on the processing

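No paired analysis was possible because each culture has 1 IP array. No array was left out for the same reason.

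Centring on the genes in the lowest 25% by Pol II gave a median of 0.93 in S phase, and counts of 60 enriched genes in the asynchronous culture and 7 higher in S phase. Without centring the medians were -1.68 in S phase, 0.17 in the asynchronous culture and -1.83 for S phase over asynchronous, with 0 genes enriched in S phase, 0 in the asynchronous culture, 0 higher in S phase and 81 lower. Removing the GC trend gave medians of 0.14 in S phase and 0.17 in the asynchronous culture, 13 genes enriched in S phase and 4 in the asynchronous culture. It also gave rho with Pol II of 0.60 in S phase and 0.56 in the asynchronous culture, and rho with RNA level of 0.077 in S phase and 0.0067 in the asynchronous culture. For Pol II the trend was removed from both columns, and for RNA level from Upf1 alone. Scaling the S-phase column left 25 enriched genes in S phase and 0 higher. At 2-fold 11 genes were enriched in S phase, 0 in the asynchronous culture and 0 were higher in S phase. Without the members that overlap another gene, rho with Pol II was 0.074 in S phase and 0.40 in the asynchronous culture, and rho with RNA level 0.32 in the asynchronous culture. Without members that share words with another place, rho with RNA level was 0.40 in S phase and 0.51 in the asynchronous culture. The plain difference of Upf1 and Pol II ratios, chosen after seeing the data, as were the settings on length and on shared words of pairs, had medians of -0.74 in S phase and -0.92 in the asynchronous culture. The other 44 of 74 values stayed within 0.24 for medians, 0.1 for rho and 1.5 times for counts. The cause of these changes was not tested.

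Of the 47 genes picked by the rule, the GC correction turned the sign of some called ratios. In S phase rpl13 went to -0.037, rpl15 to -0.21, rpl1901 to -0.17, rpl2101 to -0.040, rpl301 to -0.015 and rpl801 to -0.30. In the asynchronous culture rpl15 went to -0.10, rpl301 to -0.040 and rpl801 to -0.22. A single array per culture and genes shorter than a DNA fragment limit what the values can show.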
